A study of Homo sapiens with 6 samples.

Results

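The genes described here are 10 immediate early and MAPK feedback genes, EGR1, FOS, FOSL1, NR4A1, NR4A2, DUSP4, DUSP6, SPRY4, ETV4 and ETV5, chosen by symbol and represented by all of their single-gene probe sets. The choice was made with earlier results of these data known. Counts of these genes set beside shares of all genes are therefore descriptions. All 10 were on the array, with 25 of its 54675 probe sets, and all 10 were among the 14428 genes tested. The cells were A2058, an established melanoma line of human origin, and total RNA of each of 6 cultures was read on 1 Affymetrix array. TET2WT cells overexpress the wild-type TET2 construct, TET2M cells overexpress the construct that another label field calls Mut, and Mock cells are the controls, and each line was grown for 7 days in DMEM with 4.5 g/L (high) or 1 g/L (normal) glucose. The promoter of the constructs, the change carried by TET2M, and whether a line is a clone or a pool were not stated in the labels.

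Immediate early genes are transcribed within minutes of a growth factor or stress signal, without new protein synthesis, and their mRNAs are short-lived. Much of the signal runs through the RAS, RAF, MEK and ERK kinases. ERK phosphorylates ternary complex factors such as ELK1, which act with serum response factor at CArG boxes in the promoters of EGR1 and FOS. ERK output also raises its own brakes, the DUSP phosphatases and Sprouty proteins, and the ETS factors ETV4 and ETV5. A2058 is known to carry an activating BRAF mutation, and in such melanomas the mRNAs of this group are commonly read as a measure of ERK pathway output.

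The arrays had nearly the same distribution of values, with median probe set values between 2.96 and 3.03 on the log2 scale. TET2 read 9.54 and 9.68 in TET2WT, 7.57 and 7.37 in TET2M, and 3.81 and 4.13 in Mock (high then normal glucose). Of 8 melanocyte markers, SOX10 (9.38 to 9.65), S100B (7.20 to 7.90), MITF (6.30 to 6.96) and PMEL (3.55 to 4.20) lay above the low-value level of 2.64 in their mean. The pigment markers MLANA, TYR and TYRP1 lay below it, and DCT was not analysed here. Of the markers of other cell types, 4 of 4 keratinocyte, 3 of 4 fibroblast and 3 of 4 endothelial markers also lay above that level in their mean, with KRT10 from 9.23 to 9.39 and PECAM1 from 4.09 to 4.45. The defining blood marker PTPRC (1.98 to 2.22) and the endothelial marker CDH5 (1.98 to 2.24) stayed below it on every array. The values are bulk averages, so fewer cells expressing a gene and less RNA per cell cannot be told apart.

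Differences below are log2 differences, with limma's standard error after ±. A gene passed at a limma p under 0.05 once adjusted (Benjamini-Hochberg) across the 14428 genes. Each line was measured once at each concentration. The error therefore starts from the variation of a difference over lines or concentrations. In limma it is then moderated toward the variance of all genes tested. It is not a gene's own spread alone, and can exceed that spread where the lines are nearly equal. The p-values cover no more than the array-to-array spread, which may be technical. Values are those of each gene's probe set with the highest mean, unless other probe sets are named, and values of different genes are not compared as levels.

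The comparison of high with normal glucose asked whether these transcripts followed the glucose concentration. EGR1, SPRY4 and NR4A2 read lower on all 3 high-glucose arrays than on any normal-glucose array. DUSP6, ETV4, NR4A1 and DUSP4 had smaller negative differences in every line, FOS and FOSL1 differed in direction between lines, and ETV5 had a mean difference of 0. In limma, 0 of the 10 passed for glucose, where 0.00693% of all genes tested (1 of 14428) passed in either direction. At an unadjusted p under 0.05 in limma, 5 of 10 were lower, EGR1, SPRY4, NR4A2, DUSP6 and ETV4, against 8.19% of all genes, and 0 were higher, against 7.18% (15.4% in either direction). The median difference of the 10 was -0.24, beside -0.02 for all genes.

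**Figure D1:**
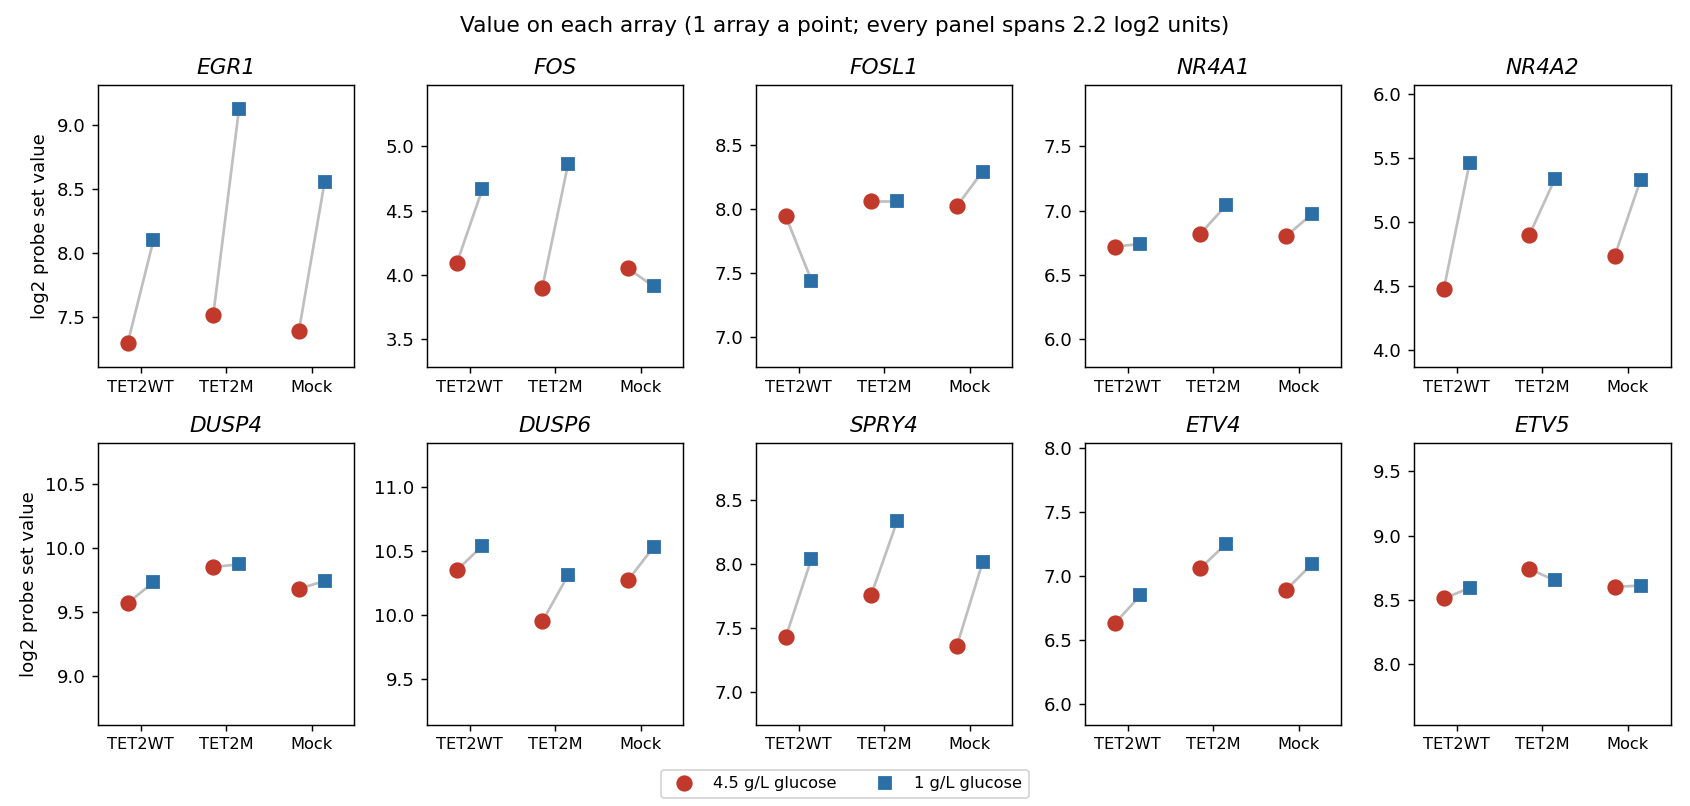
Log2 probe set value (y) of the highest-mean probe set of each gene in TET2WT, TET2M and Mock (x), with 1 point for each array, circles for 4.5 g/L and squares for 1 g/L glucose, joined within a line. In EGR1, SPRY4 and NR4A2 every circle lies below every square, whereas in FOSL1 the direction of the joining line differs between TET2WT and Mock.

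EGR1 encodes a zinc finger transcription factor that is induced within minutes of ERK activation. It read 7.30 in TET2WT, 7.52 in TET2M and 7.39 in Mock at high glucose, against 8.10 in TET2WT, 9.12 in TET2M and 8.55 in Mock at normal glucose. The 3 high-glucose arrays lay within 0.22 of each other and the 3 normal-glucose arrays spread over 1.02, with no overlap between the groups. The mean was 7.40 ± 0.11 at high and 8.59 ± 0.51 at normal glucose (SD over the 3 lines, 1 array each). The difference was -1.19 ± 0.15, a fold of 2.28, and 3 of 3 lines were lower (limma, adjusted p = 0.0842). By difference EGR1 ranked 3 from the lowest of the 14428 genes. It was the 1 of the 10 genes at least 1.5-fold lower in every line, a size reached by 0.0832% of all genes, and 0 of the 10 were at least 1.5-fold higher in every line, against 0.132%. The other EGR1 probe sets gave mean differences of -1.31 and -1.16, and all 3 probe sets were lower in every line, from -0.80 to -1.62.

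The EGR1 promoter is printed because it holds the response elements through which ERK signalling is known to reach this gene, and that of SPRY4 because it is the other gene with the smallest adjusted p. The FOS promoter is set beside them as another immediate early gene whose lines differed. The windows run from 250 bases before to 50 bases after the annotated start in the reference genome (RefSeq, GRCh38.p14), at chr5:138465229-138465528 on the plus strand for EGR1, chr5:142324198-142324497 on the minus strand for SPRY4 and chr14:75278578-75278877 on the plus strand for FOS. Capitals mark matches on either strand to a CArG box, the cAMP response element TGACGTCA, the AP-1 element TGANTCA or the EGR site GCGNGGGCG.
EGR1: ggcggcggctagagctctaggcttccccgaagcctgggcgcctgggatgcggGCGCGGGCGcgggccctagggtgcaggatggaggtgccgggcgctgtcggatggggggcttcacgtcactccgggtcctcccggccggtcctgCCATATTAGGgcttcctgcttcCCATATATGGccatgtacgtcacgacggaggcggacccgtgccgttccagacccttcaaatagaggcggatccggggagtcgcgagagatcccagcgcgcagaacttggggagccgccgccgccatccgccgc
SPRY4: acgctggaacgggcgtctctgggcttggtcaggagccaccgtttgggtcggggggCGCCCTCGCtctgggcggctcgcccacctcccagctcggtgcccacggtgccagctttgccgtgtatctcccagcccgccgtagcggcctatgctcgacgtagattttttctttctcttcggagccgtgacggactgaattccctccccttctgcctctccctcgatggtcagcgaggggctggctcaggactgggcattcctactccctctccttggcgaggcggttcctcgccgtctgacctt
FOS: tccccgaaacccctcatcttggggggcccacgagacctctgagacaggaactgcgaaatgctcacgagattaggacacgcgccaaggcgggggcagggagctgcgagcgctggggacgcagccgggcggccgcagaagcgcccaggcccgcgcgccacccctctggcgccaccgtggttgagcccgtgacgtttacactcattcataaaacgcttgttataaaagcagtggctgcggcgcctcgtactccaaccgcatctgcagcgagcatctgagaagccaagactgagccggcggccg
The EGR1 window held 2 CArG boxes, starting 105 and 83 bases before the start, and 1 EGR site, starting 198 bases before it, and these matches do not overlap. SPRY4 held 1 EGR site on the opposite strand, 195 bases before the start, and none of the 4 motifs was in the FOS window. Bases more than 250 before the start were not searched. A window without a match therefore does not show that the gene lacks the element. Of 35116 promoters of this length, 1.29% held a CArG box, 1.85% the cAMP response element, 7.71% the AP-1 element and 9.43% the EGR site. CpG dinucleotides, the usual substrate of DNA methylation, numbered 33 in the EGR1 window, 26 in SPRY4 and 30 in FOS, beside a median of 14. A match is a run of letters and not a measured binding site, and methylation was not measured on these arrays. Promoters were found for 5 of the 10 genes, with DUSP6 and NR4A1 holding none of these 4 motifs. Only 1 window was searched for each gene, and any other annotated start was left out. The ETS core CCGGAA, searched on both strands and not capitalised, was in 17.2% of all promoters and matched once among the 5, in NR4A1 at 17 bases before the start.

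SPRY4 encodes a Sprouty protein that restrains RAS to ERK signalling downstream of growth factor receptors. It read 7.43 in TET2WT, 7.76 in TET2M and 7.36 in Mock at high glucose, against 8.04, 8.33 and 8.01 in the same lines at normal glucose. All high-glucose arrays lay below all normal-glucose arrays. Its differences within the lines were the most even of the 3 genes whose groups did not overlap, at -0.61 in TET2WT, -0.57 in TET2M and -0.65 in Mock. The mean difference was -0.61 ± 0.071, a fold of 1.53, with an adjusted p of 0.0783 in limma. SPRY4 had a single probe set, so this value has no check within the array.

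NR4A2, an orphan nuclear receptor of the NR4A family that is also induced as an immediate early gene, read 4.48 in TET2WT, 4.90 in TET2M and 4.74 in Mock at high glucose. At normal glucose it read 5.46, 5.34 and 5.33 in the same lines. The groups did not overlap, and the difference was -0.67 ± 0.12, a fold of 1.59 (limma, adjusted p = 0.138), with 3 of 3 lines lower. The difference was -0.98 in TET2WT, against -0.44 in TET2M and -0.59 in Mock. All 3 NR4A2 probe sets were lower in every line, with mean differences of -0.67, -0.50 and -0.40. The probe set at -0.50 had the lowest mean of the 3. Its ID ends in x_at, the manufacturer's mark for probes that may bind more than 1 transcript. Together 3 of the 10 genes had high-glucose arrays wholly below normal-glucose arrays, where 7.8% of all genes did, and 0 had them wholly above, where 6.04% did.

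Its relative NR4A1, a nuclear receptor that stress and growth signals induce, read 6.72 in TET2WT, 6.82 in TET2M and 6.80 in Mock at high glucose, against 6.74, 7.04 and 6.97 at normal glucose. These arrays overlapped, and the difference was -0.14 ± 0.078 (adjusted p = 0.448, limma). The interval of the difference, at 95% confidence, ran from -0.33 to 0.054. That probe set and another of its 3 also have IDs ending in x_at. The remaining NR4A1 probe set gave differences of 0.13 in TET2WT, -0.14 in TET2M and -0.42 in Mock.

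FOS and FOSL1 encode Fos-family partners of JUN in the transcription factor AP-1, and FOSL1, which is the more stable product, is maintained by sustained ERK activity. FOS read 4.09 in TET2WT, 3.90 in TET2M and 4.05 in Mock at high glucose, against 4.67, 4.86 and 3.91 at normal glucose. It was lower at high glucose in TET2WT (-0.58) and TET2M (-0.96) and not in Mock (0.14), and its mean difference was -0.47 ± 0.20 (adjusted p = 0.339, limma). FOSL1 read 7.94, 8.06 and 8.02 in TET2WT, TET2M and Mock at high glucose, against 7.44, 8.06 and 8.29 at normal glucose. Its differences were 0.50 in TET2WT, 0 in TET2M and -0.27 in Mock, with a mean of 0.077 ± 0.15 (adjusted p = 0.841, limma). Each has 1 probe set. The mean difference of FOS was -0.77 without the Mock arrays and -0.22 without the TET2M arrays, so its size rests on which lines are included.

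DUSP6, a cytoplasmic phosphatase specific for ERK, read 10.35 in TET2WT, 9.95 in TET2M and 10.27 in Mock at high glucose, against 10.54, 10.31 and 10.53 at normal glucose. The groups overlapped, because TET2M at normal glucose lay below TET2WT at high glucose, while each line was lower at high glucose. The difference was -0.27 ± 0.075, a fold of 1.21 (limma, adjusted p = 0.215), and all 3 DUSP6 probe sets were lower in every line. DUSP4, a nuclear phosphatase of ERK and other MAP kinases, read 9.57, 9.85 and 9.68 in TET2WT, TET2M and Mock at high glucose, against 9.73, 9.87 and 9.74 at normal glucose. Its difference was -0.080 ± 0.074 with an interval from -0.26 to 0.10 (adjusted p = 0.646, limma), and its other probe sets gave 0.030 and -0.10.

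ETV4 and ETV5 encode PEA3-subfamily ETS transcription factors whose transcription follows fibroblast growth factor and ERK signalling. ETV4 read 6.63, 7.06 and 6.89 in TET2WT, TET2M and Mock at high glucose, against 6.85, 7.25 and 7.09 at normal glucose. Its differences of -0.22, -0.19 and -0.20 were nearly equal in the 3 lines, with a mean of -0.20 ± 0.070 (adjusted p = 0.271, limma). The other ETV4 probe set gave -0.27 in TET2WT, 0 in TET2M and 0.020 in Mock. ETV5 read 8.51, 8.74 and 8.60 in TET2WT, TET2M and Mock at high glucose, against 8.59, 8.65 and 8.61 at normal glucose. The mean difference was 0 ± 0.075, with an interval from -0.18 to 0.18, and the 5 ETV5 probe sets had mean differences from -0.15 to 0.043. One of them read below the low-value level in its mean and was left out of the tests.

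**Figure D2:**
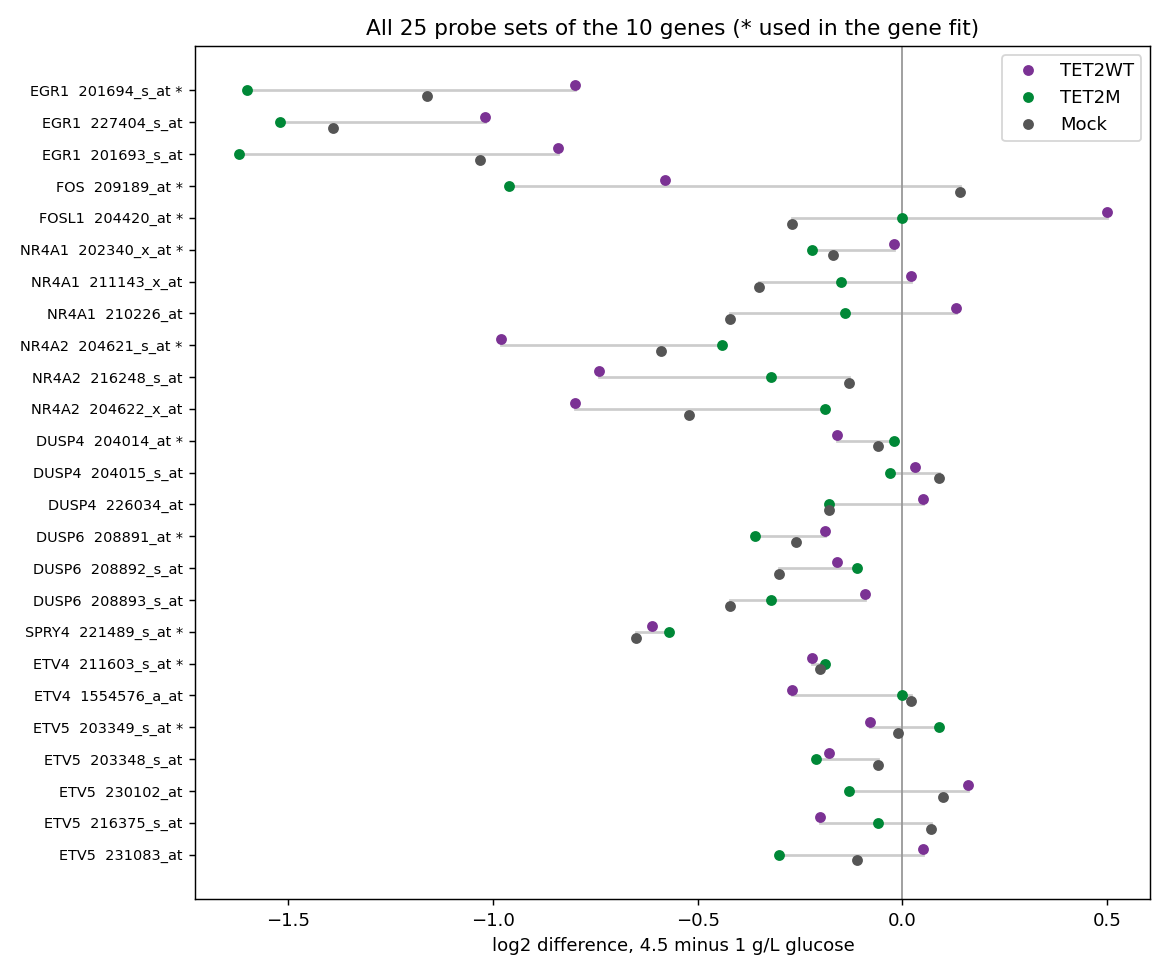
Log2 difference of 4.5 minus 1 g/L glucose (x) for each of the 25 probe sets of the 10 genes (y), with 1 point for each line and an asterisk on the probe set used in the gene comparison. All 3 probe sets of EGR1, of NR4A2 and of DUSP6 lie below 0 in every line, and those of ETV5 and DUSP4 lie on both sides of it.

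By probe set, 14 of the 25 were lower at high glucose in 3 of 3 lines, 0 were higher in all 3, and 11 were mixed or 0 in some line. No matching share over all probe sets was counted, so these counts only describe the 25. By gene, 7 of 10 were lower in 3 of 3 lines by any size, against 20.7% of all genes, and 0 were higher in 3 of 3, against 16.7%. The count by gene uses 1 probe set each. All probe sets of EGR1, NR4A2, DUSP6 and SPRY4 were lower in every line. For NR4A1 and DUSP4 only 1 of 3 was, and for ETV4 1 of 2. Within each line the median difference of the 10 genes was -0.21 in TET2WT, -0.29 in TET2M and -0.23 in Mock, where the medians of all genes lay between -0.030 and 0. Probe sets of 1 gene share their transcript and their arrays, so their counts are not independent observations. When the moderated variance was allowed to follow intensity, 4 of the 10 passed, all lower (3.97% of all genes passed), with adjusted p of 1.37e-04 for EGR1, 2.75e-04 for SPRY4, 0.00707 for DUSP6 and 0.0121 for NR4A2 in limma.

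**Figure D3:**
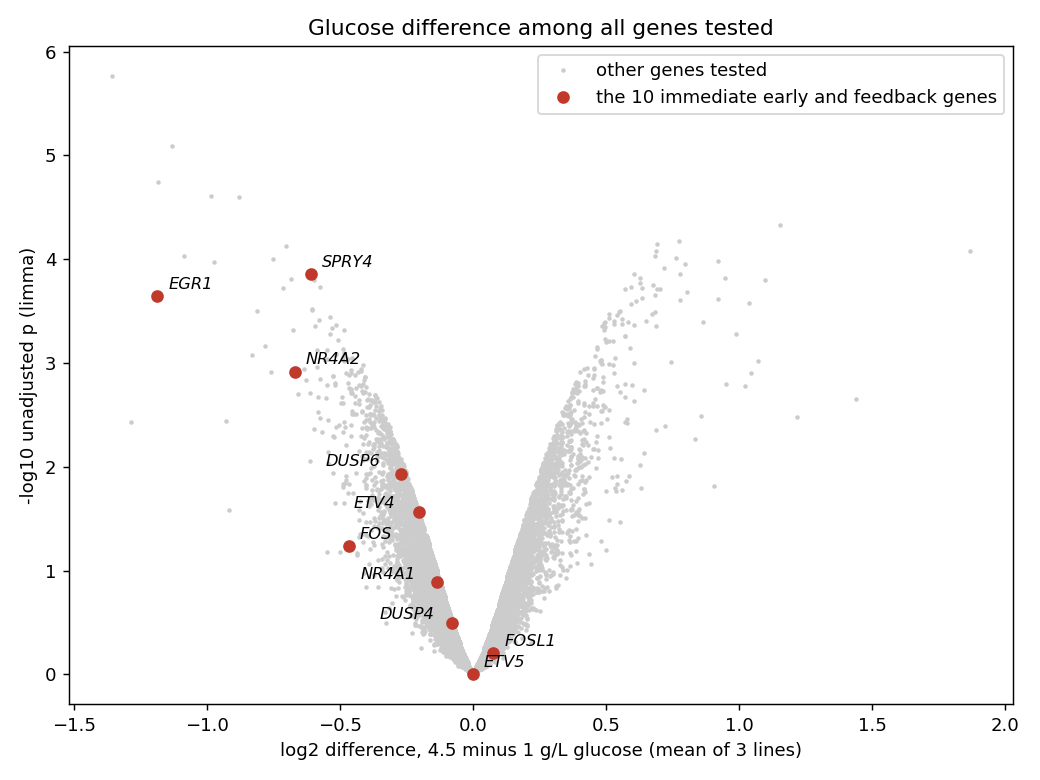
Mean log2 difference over the 3 lines, 4.5 minus 1 g/L glucose (x), against the negative log10 of the unadjusted limma p (y) for all 14428 genes tested, with the 10 genes named. EGR1 (-1.19), NR4A2 (-0.67) and SPRY4 (-0.61) stand out on the left, and ETV5, FOSL1, DUSP4 and NR4A1 lie near the base.

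Measures of RNA quality and of other cell types are given beside these glucose differences. The 3′ minus 5′ difference of the ACTB control probe sets, which rises as RNA is degraded, was 2.06 in TET2WT, 1.93 in TET2M and 2.02 in Mock at high glucose, against 1.90, 1.65 and 1.94 at normal glucose. That of the GAPDH controls was 0.35, 0.28 and 0.29, against 0.25, 0.28 and 0.32. The summed log2 values of the 4 fibroblast markers were 13.91, 15.39 and 14.59 in the same lines at high glucose, against 13.03, 14.33 and 14.38 at normal glucose, with COL3A1 below the low-value level in its mean. Those of the 4 keratinocyte markers were 20.08, 21.77 and 21.68, against 18.68, 20.39 and 21.70. Those of the 4 endothelial markers were 12.52, 12.61 and 12.57, against 12.28, 12.90 and 12.56. For blood, 1 of the 3 measured blood markers, CD3E, lay above the low-value level in its mean. The part of these measures in the glucose differences was not tested.

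The lines were nearly alike for some of these genes at one concentration and spread at the other. EGR1 spanned 0.22 over the 3 lines at high and 1.02 at normal glucose, FOS 0.19 and 0.95, and FOSL1 0.12 and 0.85. NR4A2 ran the other way, with 0.42 at high and 0.13 at normal glucose. Of the 10 genes, 4 had the wider spread at normal and 6 at high glucose, where 49.4% and 48% of all genes did. Over all 6 arrays EGR1 had a range of 1.82, and 0.8% of genes had a larger one. The ranges of ETV5 (0.23), DUSP4 (0.30) and NR4A1 (0.32) lay below the median gene's 0.38.

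Whether TET2WT responded to glucose differently from the other lines was tested with a separate term, which set its difference against the mean of TET2M and Mock. In limma 0 of 10 genes passed, as did 0% of all genes. This term left 1 residual degree of freedom, and the smallest adjusted p of any gene was 0.531 in limma. The lack of passing genes therefore does not show that the lines responded equally. At an unadjusted p under 0.05, FOSL1 was higher and NR4A2 lower, beside 5.06% of all genes higher and 4.12% lower (9.18% either way). FOSL1 had a difference of 0.64 ± 0.17 and NR4A2 of -0.47 ± 0.13, each with an adjusted p of 0.531 in limma. EGR1 had 0.58 ± 0.25 (adjusted p = 0.554, limma), with a glucose difference of -0.80 in TET2WT, -1.60 in TET2M and -1.16 in Mock. SPRY4 had 0 ± 0.11, with an interval from -0.36 to 0.36.

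**Figure D4:**
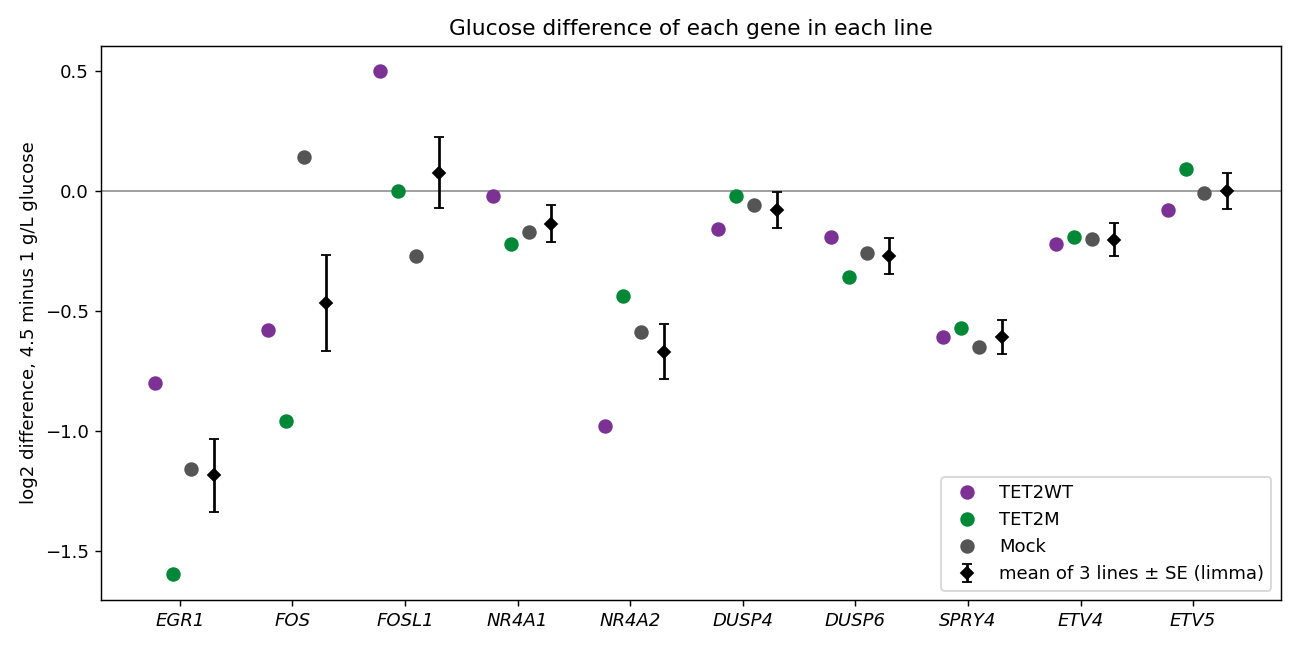
Log2 difference of 4.5 minus 1 g/L glucose (y) of each gene (x) in TET2WT, TET2M and Mock, 1 pair of arrays a point, beside the mean of the 3 lines with its limma standard error (diamond). The 3 lines of SPRY4 lie between -0.65 and -0.57 and those of ETV4 between -0.22 and -0.19, whereas those of EGR1 run from -1.60 to -0.80.

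The comparisons between lines, as means over both concentrations, asked whether these genes differed with TET2 overexpression. At both concentrations, 0 of 10 genes were at least 1.5-fold lower or higher in TET2WT than in Mock (1.46% and 1.35% of all genes), in TET2M than in Mock (0.374% and 0.139%) or in TET2WT than in TET2M (0.998% and 1.4%). In limma 0 of 10 passed between TET2WT and Mock, where 4.21% of all genes passed, 0 of 10 between TET2M and Mock, where 0.097% passed, and 0 of 10 between TET2WT and TET2M, where 3.3% passed. The median difference of the 10 was -0.063 for TET2WT minus Mock, 0.12 for TET2M minus Mock and -0.21 for TET2WT minus TET2M, beside medians of all genes from -0.02 to 0. The first and second comparison share the Mock arrays, the others share those of an overexpressing line, and their values are not independent. Both TET2WT arrays lay below both Mock arrays for 4 of the 10 genes, FOSL1, NR4A1, ETV4 and ETV5 (23.8% of all genes), and above them for 1, FOS (19.7%). TET2M lay wholly above Mock for 2, DUSP4 and ETV5 (12.8%), and wholly below it for 0 (20.2%). TET2WT lay wholly below TET2M for 5, FOSL1, NR4A1, DUSP4, ETV4 and ETV5 (19.9%), and wholly above it for 1, DUSP6 (21.2%). These counts use 1 probe set a gene, and other probe sets did not always separate the lines. TET2WT and TET2M overlapped on another probe set of DUSP4 (9.39 and 9.36 against 9.35 and 9.38, high then normal glucose). The same held for another of NR4A1 (3.98 and 3.85 against 3.86 and 4) and of ETV5 (5.64 and 5.84 against 5.72 and 5.78). The remaining DUSP4 and NR4A1 probe sets and the other ETV4 probe set kept them apart. Among the cell type markers, MITF (-0.60, adjusted p = 0.0433, limma), the keratin gene KRT14 (-2.40, adjusted p = 4.42e-04) and the fibroblast marker LUM (-1.06, adjusted p = 0.0137) were lower in TET2WT than in Mock. The other markers tested did not pass and several had positive differences, 3 of 4 melanocyte (S100B 0.24, PMEL 0.16), 3 of 4 keratinocyte (KRT5 0.055, KRT1 0.025) and 1 of 3 fibroblast markers (COL1A1 0.34). The part of these markers in the line differences was not tested.

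ETV4 had the smallest adjusted p of the 10 genes between lines. It averaged 6.74 ± 0.16 in TET2WT and 7.16 ± 0.13 in TET2M, and both TET2WT arrays lay below both TET2M arrays. Here ± is the SD over the 2 glucose concentrations, 1 array each, and not a spread of replicates. The difference was -0.42 ± 0.086, a fold of 1.33 (adjusted p = 0.0672, limma; lower at 2 of 2 concentrations). Against Mock, limma gave ETV4 -0.25 ± 0.086 in TET2WT (adjusted p = 0.183) and 0.17 ± 0.086 for TET2M (adjusted p = 0.607). The other ETV4 probe set gave -0.18 ± 0.11 for TET2WT minus TET2M.

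EGR1 averaged 7.70 in TET2WT and 8.32 in TET2M, with a difference of -0.62 ± 0.18 (adjusted p = 0.163, limma). The gap between these lines was 0.22 at high glucose, 7.30 in TET2WT against 7.52 in TET2M, and larger at normal glucose, 8.10 against 9.12. The EGR1 difference was -0.91 without TET2WT and -0.93 without TET2M at high glucose, and -0.33 without TET2WT and -0.31 without TET2M at normal glucose. SPRY4 averaged 8.05 in TET2M and 7.69 in Mock, a difference of 0.36 ± 0.087 (adjusted p = 0.367, limma). TET2WT lay 0.050 ± 0.087 from Mock and -0.31 ± 0.087 from TET2M (adjusted p = 0.142, limma).

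DUSP6 had the opposite sign to SPRY4 and EGR1 in TET2M. It averaged 10.13 ± 0.25 in TET2M and 10.40 ± 0.18 in Mock (SD, n = 2 each), a difference of -0.27 ± 0.092 (limma, adjusted p = 0.449). Against TET2M, TET2WT was higher by 0.32 ± 0.092 (adjusted p = 0.156, limma), with both TET2WT arrays above both TET2M arrays. The other DUSP6 probe sets gave 0.36 and 0.49 for TET2WT minus TET2M, and -0.35 and -0.25 for TET2M minus Mock.

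FOSL1 averaged 7.69 ± 0.35 in TET2WT and 8.16 ± 0.19 in Mock (SD over the 2 glucose concentrations, 1 array each). The difference was -0.47 ± 0.18 (adjusted p = 0.230, limma), and the TET2WT arrays lay below the Mock arrays. This FOSL1 value rests on single arrays: it was -0.78 without TET2WT and -0.73 without Mock at high glucose, and -0.15 without TET2WT and -0.21 without Mock at normal glucose. FOS averaged 4.38 in both TET2WT and TET2M and 3.98 in Mock, so each overexpressing line stood at 0.40 ± 0.24 from Mock (adjusted p = 0.425 for TET2WT and 0.660 for TET2M, limma). Without the Mock array at normal glucose each of these FOS differences was -0.055. NR4A1, NR4A2, DUSP4 and ETV5 differed by between -0.21 and 0.15 in the 3 line comparisons, with adjusted p from 0.305 to 0.923 in limma. Some of their other probe sets differed more. For TET2WT minus Mock, NR4A1 had one at -0.335 and NR4A2 one at -0.27. ETV5 had one at -0.275 for TET2WT minus TET2M and another at 0.225 for TET2M minus Mock. None passed in limma when all probe sets were fitted.

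**Figure D5:**
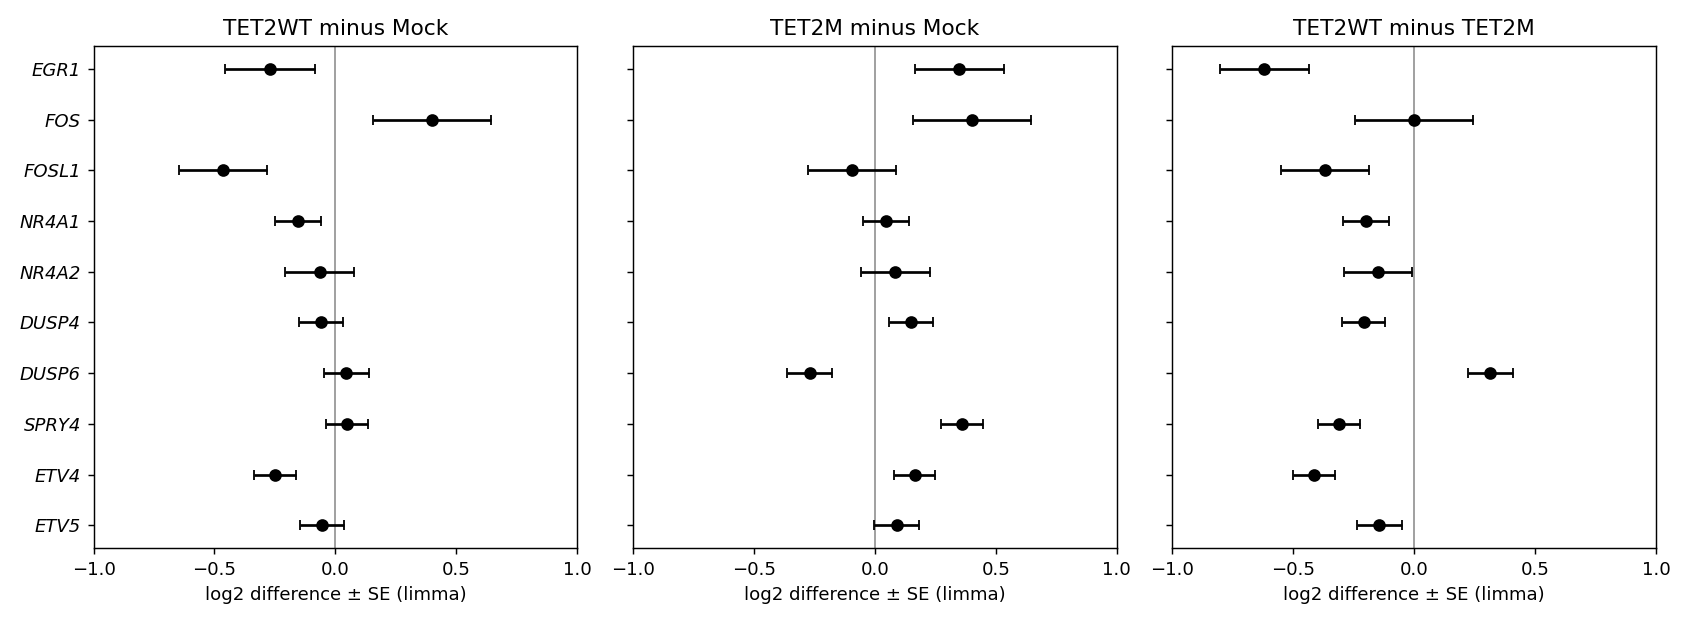
Log2 difference between lines (x, mean over both glucose concentrations, with the limma standard error) for each gene (y), in 3 panels for TET2WT minus Mock, TET2M minus Mock and TET2WT minus TET2M. DUSP6 is the 1 gene to the right of 0 in the third panel, at 0.32, and to the left by -0.27 in the second, where SPRY4 stands at 0.36.

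At an unadjusted p under 0.05 in limma, counts between lines are set beside the shares over all genes. For TET2WT against Mock they were 2 lower, FOSL1 and ETV4 (11.4% of all genes), and 0 higher (8.78%; 20.2% in all). For TET2M against Mock they were 1 higher, SPRY4 (3.34%), and 1 lower, DUSP6 (6.17%; 9.51% in all). For TET2WT against TET2M they were 3 lower, EGR1, SPRY4 and ETV4 (8.13%), and 1 higher, DUSP6 (9.52%; 17.6% in all). With the moderated variance following intensity, FOSL1 passed between TET2WT and Mock (10.6% of all genes), DUSP6 and SPRY4 between TET2M and Mock (1.03%), and DUSP4, DUSP6, EGR1, ETV4 and SPRY4 between TET2WT and TET2M (8.66%).

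Other immediate early genes and other parts of the pathway were described from gene lists. For glucose, 0 of 23 tested immediate early genes passed in limma, with a median of -0.080. At an unadjusted p under 0.05, 3 were higher and 3 lower, against 7.18% and 8.19% of all genes. ATF3, a stress-induced factor that is also a target of ATF4, stood at 0.69 ± 0.16, the oncogene MYC at -0.42 ± 0.093 and the matricellular gene CCN1 at -0.36 ± 0.21. CCN1 differed in direction between lines, at 0.33 in TET2WT, -0.64 in TET2M and -0.76 in Mock. Of 23 tested feedback genes 0 passed, with a median of -0.023, while 2 were higher and 6 lower at an unadjusted p under 0.05 in limma. Among them SPRY1, another Sprouty gene, stood at -0.52 ± 0.17, PHLDA1 at -0.38 ± 0.080 and the ERK phosphatase gene DUSP7 at 0.39 ± 0.086. SPRY1 was uneven, at -0.97 in TET2WT, -0.53 in TET2M and -0.05 in Mock. Of the kinases and adaptors of the cascade 0 of 19 passed, with a range from -0.21 for MAPK3, which encodes ERK1, to 0.19 for RASA2. Of the receptors 0 of 12 passed, from -0.19 to 0.29 for MET, and of the ligands 0 of 11, with the KIT ligand gene KITLG at 0.51 ± 0.070 (adjusted p = 0.0893, limma). Of the p38, JNK and heat shock genes 0 of 10 passed, and MAPK11 had the largest difference at -0.43 ± 0.15. It stood at -0.26 in TET2WT, -0.16 in TET2M and -0.87 in Mock. At an unadjusted p under 0.05 in limma, 3 receptors and 2 ligands were higher. Lower at that p were 2 cascade genes, 2 ligands and 1 stress gene.

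Between lines 4.21% of all genes passed for TET2WT against Mock and 3.3% for TET2WT against TET2M, and some genes of these lists were among them. PDGFA, a ligand of the platelet-derived growth factor receptors that signal to RAS, read 6.70 and 6.54 in TET2WT at high and normal glucose, 4.55 and 4.60 in TET2M, and 4.8 and 4.60 in Mock. It rose in TET2WT by 1.92 ± 0.10 against Mock (adjusted p = 7.77e-04, limma) and by 2.05 ± 0.10 against TET2M (adjusted p = 8.13e-04, limma). PDGFC, a related ligand gene, rose against Mock by 0.84 ± 0.12 (adjusted p = 0.0223, limma), the receptor gene ERBB2 by 0.65 ± 0.095 (adjusted p = 0.0229, limma), the cytokine gene IL11 by 0.76 ± 0.10 (adjusted p = 0.0173, limma) and the ephrin receptor gene EPHA4 by 0.59 ± 0.10 (adjusted p = 0.0396, limma). With the mean of its probe sets EPHA4 was at 0.36 and did not pass.

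SPRY2, a Sprouty gene like SPRY4, read 9.44 and 9.70 in TET2WT at high and normal glucose, 10.06 and 10.48 in TET2M, and 10.13 and 10.50 in Mock. It fell in TET2WT by 0.75 on the log2 scale against Mock (adjusted p = 0.0140, limma) and by 0.70 against TET2M (adjusted p = 0.0178, limma). SPRY2 lies on chromosome 13. DUSP10, a phosphatase of p38 and JNK, had a difference of -0.58 ± 0.094 against Mock (adjusted p = 0.0304, limma). Against Mock, limma gave the prostaglandin synthase gene PTGS2 -1.97 ± 0.23 for TET2WT (adjusted p = 0.0116) and -2.04 ± 0.23 for TET2M (adjusted p = 0.0697), and at -1.28 in TET2WT with the mean of its probe sets.

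Of the list genes, 1 of 23 immediate early genes passed lower between TET2WT and Mock, 2 of 23 feedback genes passed higher and 2 lower, 1 of 12 receptors and 2 of 11 ligands passed higher, and 0 of 19 cascade and 0 of 10 stress kinase genes passed, beside 4.21% of all genes. Between TET2WT and TET2M, KLF10 (0.60 ± 0.11), IL11 (1.26 ± 0.10) and the cyclin gene CCND1 (0.56 ± 0.094) passed higher beside PDGFA, and KITLG (-0.49 ± 0.086) passed lower beside SPRY2, where 3.3% of all genes passed. With the mean of its probe sets CCND1 was at 0.47 and did not pass. Between TET2M and Mock 0 genes of these lists passed, beside 0.097% of all genes. At an unadjusted p under 0.05 in limma, 2 of 11 ligands were higher, against 3.34% of all genes. Lower were 2 of 23 immediate early genes, 2 of 23 feedback genes, 1 of 11 ligands and 1 of 10 stress kinase genes, against 6.17%. At that p, 0 of 19 cascade and 0 of 12 receptor genes differed.

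EGR1 was the 1 gene of the 10 with a range of at least 1 over the arrays, and the genes closest to it in pattern were found by the root mean square difference of values centred on their mean over the 6 arrays. The closest were VMP1 (0.31), the stearoyl-CoA desaturase gene SCD (0.32) and the transcription factor gene TFAP2B (0.36). VMP1 differed between high and normal glucose by -0.45 in TET2WT, -0.92 in TET2M and -1.12 in Mock. SCD differed by -1.23, -1 and -1.16, and TFAP2B by -0.89, -0.62 and -0.39 in the same order of lines. They were chosen for this likeness, which is a description over 6 arrays.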

How the data were processed

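The authors deposited 1 log2 value for each probe set and array. The submitters' processing notes name Affymetrix Expression Console, while its version, summary method and background step were not stated there. Base 2 was inferred from their range. Sorted values of different arrays lay within 0.12 of each other, so the deposited arrays had nearly 1 distribution. Probe sets were named from the platform annotation: 41097 had 1 gene symbol, 1801 several and 11777 none, and symbols were updated by gene ID for 41043. Probe sets with a mean below the 40th percentile (2.64) were left out, and each gene took its probe set with the highest mean.

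No further normalization was applied. In limma 3.58.1 (R 4.3.3; lmFit, eBayes), all 6 arrays were fitted with terms for line and glucose, with 2 residual and 3.97 prior degrees of freedom. Another model held an extra glucose term for TET2WT, leaving 1 and a prior of 1.72. Tests were two-sided. Simulated data were used to test the fits. Plots used matplotlib 3.10.9 under Python 3.11.15. The number of arrays limits the precision.

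The 10 genes and the lists were chosen with earlier results of these data known. The text names all 10, TET2, the passing genes of each other list or otherwise up to 3 with the largest differences, and the 3 nearest to any of the 10 whose range reached 1. Labels carry no replicate numbers.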

Additional observations from a re-analysis of the deposited data

Results flagged for a closer look

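Within-line glucose differences of opposite sign drew attention to 3 genes. Each rests on 1 pair of arrays per line, and the differences between these lines were not tested pair by pair. FOS differed by -0.58 in TET2WT and 0.14 in Mock, a gap of -0.72, and by -0.96 in TET2M, a gap of -1.1 from Mock. FOSL1 differed by 0.50 in TET2WT and -0.27 in Mock, a gap of 0.77. Set against the mean of TET2M and Mock, the TET2WT responses of FOSL1 and FOS had adjusted p of 0.531 and 0.925 in limma. ETV5 differed by -0.08 in TET2WT and 0.09 in TET2M, a gap of -0.17, and by -0.01 in Mock, where TET2M exceeded Mock by 0.10.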

How the results depend on the processing

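Under 17 alternatives the glucose difference stayed negative for EGR1 (-1.38 to -0.98), SPRY4 (-0.63 to -0.59), NR4A2 (-0.79 to -0.52) and DUSP6 (-0.31 to -0.23), with adjusted p in limma up to 0.631 when an array or a line was left out. The number of the 10 genes passing was 0 under every alternative except 2. When the moderated variance followed intensity, 4 passed for glucose, 5 between TET2WT and TET2M, 1 between TET2WT and Mock and 2 between TET2M and Mock, and with the filter at the 60th percentile 1 passed between TET2WT and TET2M, ETV4 (adjusted p = 0.0422, limma). The trend changes the variance and not the differences. Of 690 differences recomputed, 13 became significant, and 7 turned sign from more than 1 standard error from 0. These were, between TET2WT and TET2M, NR4A2 at 0.083 without TET2WT and 0.023 without TET2M at high glucose (range -0.38 to 0.083 over single arrays left out); between TET2WT and Mock, EGR1 at 0.020 without TET2WT at normal glucose (range -0.56 to 0.020), NR4A1 at 0.055 without x_at probe sets (chosen after seeing the data), and FOS at -0.055 without Mock at normal glucose (range -0.055 to 0.855); between TET2M and Mock, FOS at -0.055 likewise (to 0.855); and, for the TET2WT-specific response, DUSP4 at 0.037 with the mean of its probe sets. Another 13 turned sign within 1 standard error. The cause of these turns was not tested. Over all genes, the count passing for glucose was 1, or 573 with the trend and 0 without the line term; for TET2WT against Mock it was 608, 1528 with the trend and 318 without the glucose term; for TET2M against Mock 14, 149 and 7; and for TET2WT against TET2M 476, 1249 and 267. Leaving out an array or the third line gave 0 to 16. The labels carry no replicate numbers, so no replicate block was fitted. The fit itself pairs arrays by line for glucose and by concentration for lines, and without that pairing term 0 of the 10 genes passed in each comparison. FOSL1 between TET2WT and Mock ran from -0.78 to -0.15 and EGR1 between TET2WT and TET2M from -0.93 to -0.31 with single arrays left out.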
